A study of Mus musculus with 20 samples.

Results

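Transcripts of 9 complement genes were measured in the RPE-choroid of mice: the 3 chains of C1q (C1qa, C1qb and C1qc), the components C3 and C4b, the alternative pathway factors Cfb and Cfd, and the regulators Cd59a and Serping1. They were chosen by name as complement components and regulators, 9 of the 24411 genes in the table, and all 9 were among the 18807 genes that passed the filter on low reads. The 20 samples came from C57BL/6 mice of 4 groups, 5 mice each, and both eyecups of a mouse were pooled after the neural retina had been peeled off. Wildtype (WT) and Stra6-/- mice, which carry a knockout of the ocular retinol transporter gene Stra6, were weaned from a standard chow rich in vitamin A onto a vitamin A sufficient (VAS, 4 IU/g) or vitamin A deficient (VAD, 0 IU/g) diet for 12 weeks. The groups were therefore VAS WT, VAD WT, VAS Stra6-/- and VAD Stra6-/-. The Stra6-/- mice were bred in-house and the WT mice were obtained from a supplier, so genotype and origin cannot be told apart. The sources used here mention no transgene or Cre and do not say how the knockout allele was made. RPE is the retinal pigment epithelium, the monolayer beneath the photoreceptors, and the choroid is the vascular tissue behind it.

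Complement is a cascade of plasma and tissue proteins that tags particles and cells for removal. C1q recognizes bound antibody, apoptotic cells and other surfaces and starts the classical pathway, whose C3 convertase is formed from C4 and C2. Factor B, once cleaved by factor D, supplies the protease of the alternative pathway convertase. Both convertases cleave C3, and host cells are shielded by regulators in the fluid and on the membrane. In the outer eye, macrophages and microglia are a known source of C1q, the RPE and choroid make several components and regulators, and complement has been linked to macular degeneration.

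The values are normalized read counts, the deposited counts per gene after division by a size factor for each library, and a log2 fold change is the difference of group means of log2(value + 1). A gene was called higher or lower where limma, fitted across all 18807 genes with the 4 groups and all 20 libraries, gave an adjusted p (Benjamini-Hochberg) under 0.05. Recovered depth ranged from 13331903 to 21878614 reads a library. Stra6 lay between 564 and 694 in the VAS Stra6-/- libraries and between 2414 and 2742 in VAS WT, but between 1973 and 2393 in the libraries labelled VAD Stra6-/-, above every VAD WT library (669 to 1529), which goes against the label. Xist, transcribed from the inactive X chromosome, was at 7.69 to 38.4 in VAS WT and 15320.2 to 18052 in VAS Stra6-/-, while the Y-linked Ddx3y was at 981 to 1193 and 0 to 1.02. Both were present in every library labelled VAD Stra6-/- (Xist 3569.8 to 4279.6, Ddx3y 741 to 969.7), although each library is described as 1 mouse. The SEs, intervals and adjusted p values below treat the 5 libraries of each group as independent mice, which was not tested. VAD WT replicates 2 and 4 (Xist 10912 and 11767) stood apart from replicates 1, 3 and 5 (174 to 234). Ddx3y was at 75.2 and 80.5 in replicates 2 and 4 and at 1041 to 1133 in replicates 1, 3 and 5. Sex-linked transcripts and genotype cannot be told apart between the VAS groups. VAD WT replicates 2 and 4 held more Ddx3y than any VAS Stra6-/- library, and replicates 1, 3 and 5 more Xist than any VAS WT library. RPE markers were read in every library, their sum being 141172 to 161697 in the 2 VAS groups, 45464 to 89388 in VAD WT and 577961 to 626192 in the libraries labelled VAD Stra6-/-. Surface epithelium markers summed to 654781 to 792642 in VAS WT, 933440 to 969373 in VAS Stra6-/- and 429364 to 1248317 in VAD WT. In these 3 groups that was above the RPE sum of every library. In the libraries labelled VAD Stra6-/- their sum was 29850.5 to 37729.9, below the RPE sum. Against VAS Stra6-/-, 11 of 12 RPE, 15 of 15 macrophage and 10 of 10 fibroblast and sclera markers were called higher in that group, and 12 of 12 surface epithelium markers, 4 of 7 rod and 6 of 7 hepatocyte markers were called lower. In the same comparison 4 of 6 microglia, 4 of 8 endothelium and 1 of 6 tested neutrophil markers were called higher, and of 10 adipocyte markers 2 were called higher and 1 lower. The part of these differences in tissue content in the results that follow was not tested, and in bulk tissue more cells of a type and more RNA per cell cannot be told apart.

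The libraries labelled VAD Stra6-/- held the highest group mean of 8 of the 9 genes, C4b being the exception, and the separation was clearest for C1q, factors B and D, and C1 inhibitor. Against VAS Stra6-/-, 7 of the 9 genes were called higher and 0 lower, where 24.4% of all genes tested were called higher and 28.8% lower. The median log2 fold change of the 9 genes was 1.30, against -0.07 over all genes. C3 and C4b were the genes not called, and at an unadjusted p under 0.05, or by edgeR or DESeq2, the counts were likewise 7 higher and 0 lower. Against VAD WT, 8 of the 9 were called higher and 0 lower (26.2% and 29.6% of all genes), with a median of 1.33 against -0.05 over all genes, and Cd59a was not called; an unadjusted p under 0.05, edgeR and DESeq2 gave the same counts of 8 and 0. The diet contrast in WT mice went another way: the 3 C1q chains were called lower and Cfb higher, where 5.5% of all genes were called lower and 3.29% higher, and the median was 0.00 over both the 9 genes and all genes. The share of all genes called in this contrast depended on VAD WT replicates 2 and 4. With them 1652 of 18807 genes were called, and without them 7124. On the sufficient diet the genotypes differed in C4b alone among the 9, which was higher in Stra6-/-, where 15.9% of all genes were called higher and 10.8% lower. The count called lower there was 0 by limma, at an unadjusted p under 0.05 and by edgeR and DESeq2 alike. Limma fitted to the 2 VAS groups alone called 3 of the 9, C4b and C3 higher and Cd59a lower (log2 -0.20, adjusted p = 0.0144). That fit called 8208 of all 18807 genes. These comparisons share groups, and their counts are not independent of each other. The groups did not overlap for 7 of the 9 genes between VAD and VAS Stra6-/- (51.3% of all genes), for 7 between the VAD groups (37.4%), for 4 between the WT diets (6.34%) and for 2 between the VAS genotypes (32.5%).

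**Figure D1:**
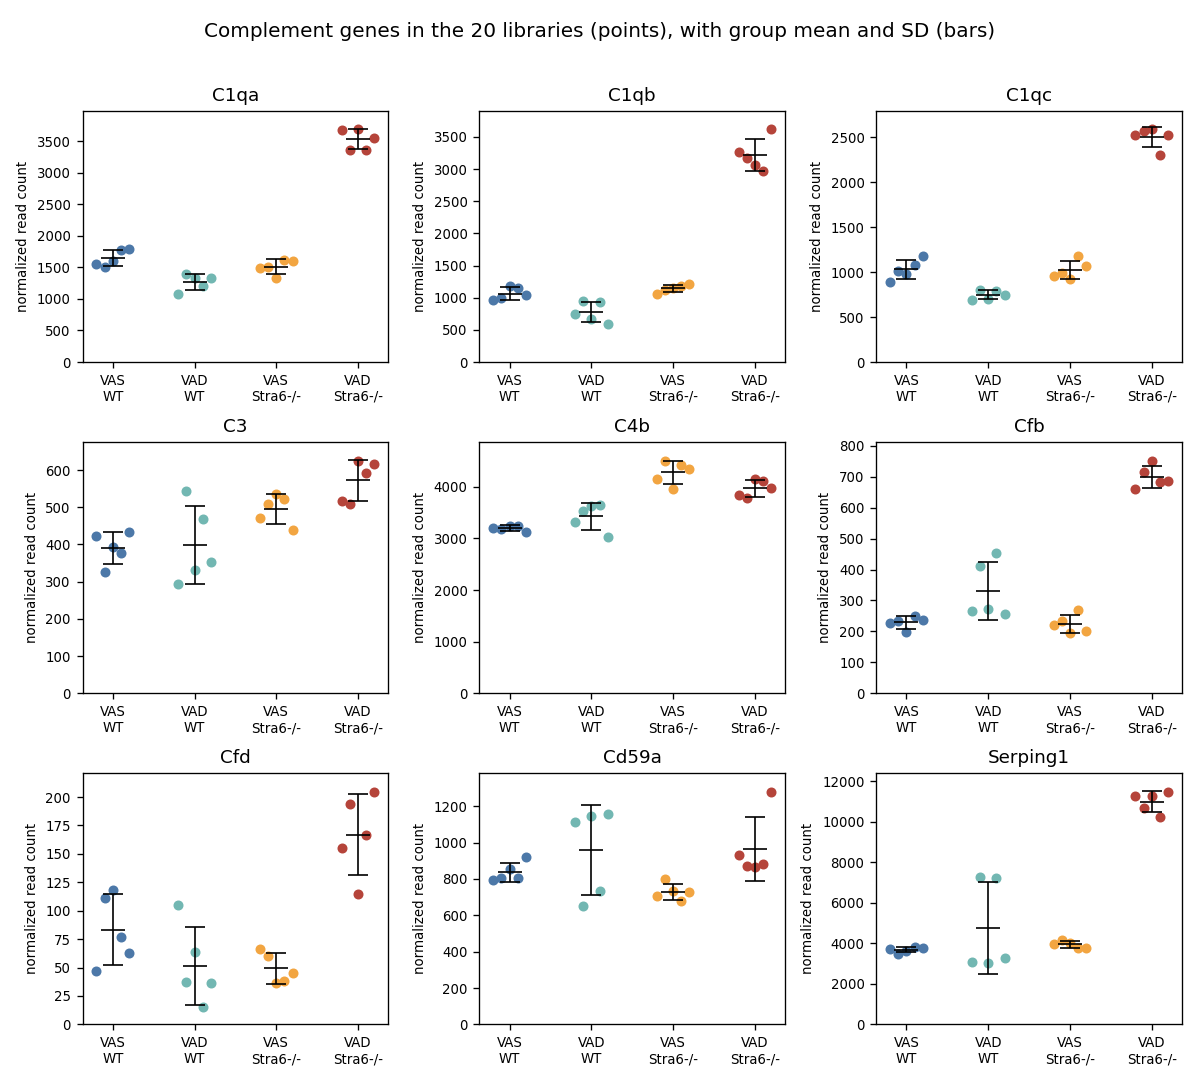
Normalized read count (vertical axis, from 0) of each complement gene in the 20 libraries (points) by group (horizontal axis), with the group mean and SD (black bars, n = 5). C1qa, C1qb, C1qc, Cfb and Serping1 are highest in all 5 libraries labelled VAD Stra6-/-, and VAD WT splits into 2 levels for Serping1 (3018 to 3253 and 7214 to 7254), Cfb and Cd59a.

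C1q is built from A, B and C chains, and the genes of the 3 chains lie side by side on the minus strand of chromosome 4 (GRCm38): C1qb at chr4:136880129-136886187, C1qc at chr4:136889804-136893065 and C1qa at chr4:136895917-136898803. Because these neighbours moved together, the sequences just upstream of C1qb and C1qc are shown (RefSeq, GRCm38.p6, minus strand, 5′ to 3′), the first from chr4:136886201-136886450 and the second from chr4:136893066-136893164. Capitals mark matches, on either strand, to GAGGAA, a core bound by the myeloid factor PU.1 and its relatives, or to AGGTCA, the half-site of many nuclear receptors including those for retinoic acid.
C1qb: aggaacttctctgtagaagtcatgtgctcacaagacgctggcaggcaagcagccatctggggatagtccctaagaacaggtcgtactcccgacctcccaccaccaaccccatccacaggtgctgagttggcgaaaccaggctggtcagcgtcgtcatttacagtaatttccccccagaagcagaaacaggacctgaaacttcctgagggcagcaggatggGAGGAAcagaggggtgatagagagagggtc
C1qc: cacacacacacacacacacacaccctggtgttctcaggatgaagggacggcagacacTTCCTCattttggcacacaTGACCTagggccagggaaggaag
The C1qb stretch held 1 GAGGAA core and the C1qc stretch 1 core and 1 half-site. The C1qc stretch is the 99 bases of its 250-base window that lie outside the gene. The whole C1qc window held no further match to either. A GAGGAA core occurs in 23.3% and an AGGTCA half-site in 14% of 32851 promoter windows of 250 bases searched the same way, so both are common letters. The interferon element, GAAA followed by any 2 bases and GAAA (2.98% of windows), and the STAT site TTCNNNGAA (7.02%) were also searched and were not in the windows of C1qb, C1qc, C3 or Cfd. The window of Cd59a held 1 interferon element and 1 core, and that of C3 held 1 half-site. No window of C1qa, C4b, Cfb or Serping1 was searched. A match of letters is a description and not evidence of binding.

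C1qa, which encodes the A chain, was read at 1559, 1508, 1606, 1782 and 1798 in VAS WT and at 1076, 1398, 1325, 1203 and 1331 in VAD WT (replicates 1 to 5). It was at 1493, 1499, 1333, 1623 and 1608 in VAS Stra6-/- and at 3686, 3364, 3688, 3366 and 3550.4 in the libraries labelled VAD Stra6-/-. Every library of the last group was above every other library, and the VAD WT values all lay under those of VAS WT. The gene was 2.34-fold higher in VAD than in VAS Stra6-/- (log2 1.23, SE 0.08, limma adjusted p = 1.3e-11), and in WT it was lower on the deficient diet by a factor of 1.31 (log2 -0.38, adjusted p = 0.0023).

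C1qb, the B chain, was at 959, 999, 1178, 1145 and 1043 in VAS WT and at 752, 946, 663, 939 and 598 in VAD WT. In VAS Stra6-/- it was at 1054, 1122, 1154, 1182 and 1211, and in the libraries labelled VAD Stra6-/- at 3260.3, 3165, 3062, 2976 and 3616. The libraries labelled VAD Stra6-/- again lay above all others and every VAD WT library below both VAS groups, and within VAD WT replicates 2 and 4 held the top values. Of the 3 chains C1qb had the largest estimates in both diet contrasts, 2.81-fold higher in Stra6-/- (log2 1.49, SE 0.11, adjusted p = 1.1e-10) and 1.38-fold lower in WT (log2 -0.47, adjusted p = 0.0066), although the 95% intervals of the chains overlapped. The WT decrease was not called when limma was fitted to the 2 WT groups alone (adjusted p = 0.112).

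C1qc, the C chain, was at 894, 1013, 985, 1080.0 and 1183 in VAS WT, at 692, 800.4, 701, 794 and 750.0 in VAD WT, and at 961, 988, 925, 1177 and 1068 in VAS Stra6-/-. The libraries labelled VAD Stra6-/- held 2529.9, 2576, 2589.7, 2307 and 2529.8. Again the 5 libraries of this group lay above all others and the VAD WT libraries below both VAS groups, with replicate 4 at the low end of its group. The change with diet was 2.45-fold up in Stra6-/- (log2 1.30, SE 0.08, adjusted p = 9.3e-12) and 1.38-fold down in WT (log2 -0.46, adjusted p = 0.00059).

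None of the 3 chains was called between the VAS genotypes, the log2 differences being -0.13 (95% interval -0.29 to 0.03) for C1qa, 0.11 (-0.11 to 0.33) for C1qb and -0.01 (-0.17 to 0.16) for C1qc. The chains did not keep a fixed ratio: the read count of C1qa over that of C1qb averaged 1.56 ± 0.135 (SD, n = 5) for VAS WT, 1.68 ± 0.407 for VAD WT, 1.322 ± 0.0996 for VAS Stra6-/- and 1.10 ± 0.084 for the libraries labelled VAD Stra6-/-. The highest ratio of the last group, 1.205, was below the lowest of VAS WT, 1.36, while the 2 Stra6-/- groups overlapped. The ratio of C1qa to C1qc ran from 1.61 ± 0.103 in VAS WT to 1.41 ± 0.0627 in the libraries labelled VAD Stra6-/-.

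Beside the C1q chains, macrophage markers moved in the same direction with diet. Their sum over 15 genes was 9696 to 11071 in VAS WT, 5829 to 8027 in VAD WT, 10881 to 11652 in VAS Stra6-/- and 30167 to 30753 in the libraries labelled VAD Stra6-/-. None of the 15 was at 0 in any library, and Lyz2, the most abundant, was at 3426 to 4085, 956 to 2711, 4296 to 4803 and 11455 to 12171 in the same order. Of these markers 15 were called higher with the deficient diet in Stra6-/-, and 7 lower and 1 higher (the scavenger receptor Cd163) in WT. RPE markers moved this way too. Of 12, 11 were called higher in Stra6-/- (24.4% of all genes) and 10 lower in WT (5.5% of all genes). The C1q chains were not scaled to the RPE markers. Relative to the mean log2 level of the macrophage markers, C1qa stood higher by 2.35 ± 0.109 in VAS WT, 2.23 ± 0.129 in VAD WT, 2.23 ± 0.0952 in VAS Stra6-/- and 2.09 ± 0.0787 in the libraries labelled VAD Stra6-/-. C1qb stood higher by 1.72 ± 0.18, 1.52 ± 0.258, 1.83 ± 0.0965 and 1.95 ± 0.0966 in the same order, and C1qc by 1.67 ± 0.122, 1.48 ± 0.0708, 1.67 ± 0.139 and 1.59 ± 0.0497. Neutrophil genes were scarce beside them, with a sum of 341 to 448 in the libraries labelled VAD Stra6-/- and 51.1 to 349 elsewhere, and Mpo at 0 in every library. The part of macrophage number or of RPE content in the C1q levels was not tested.

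**Figure D2:**
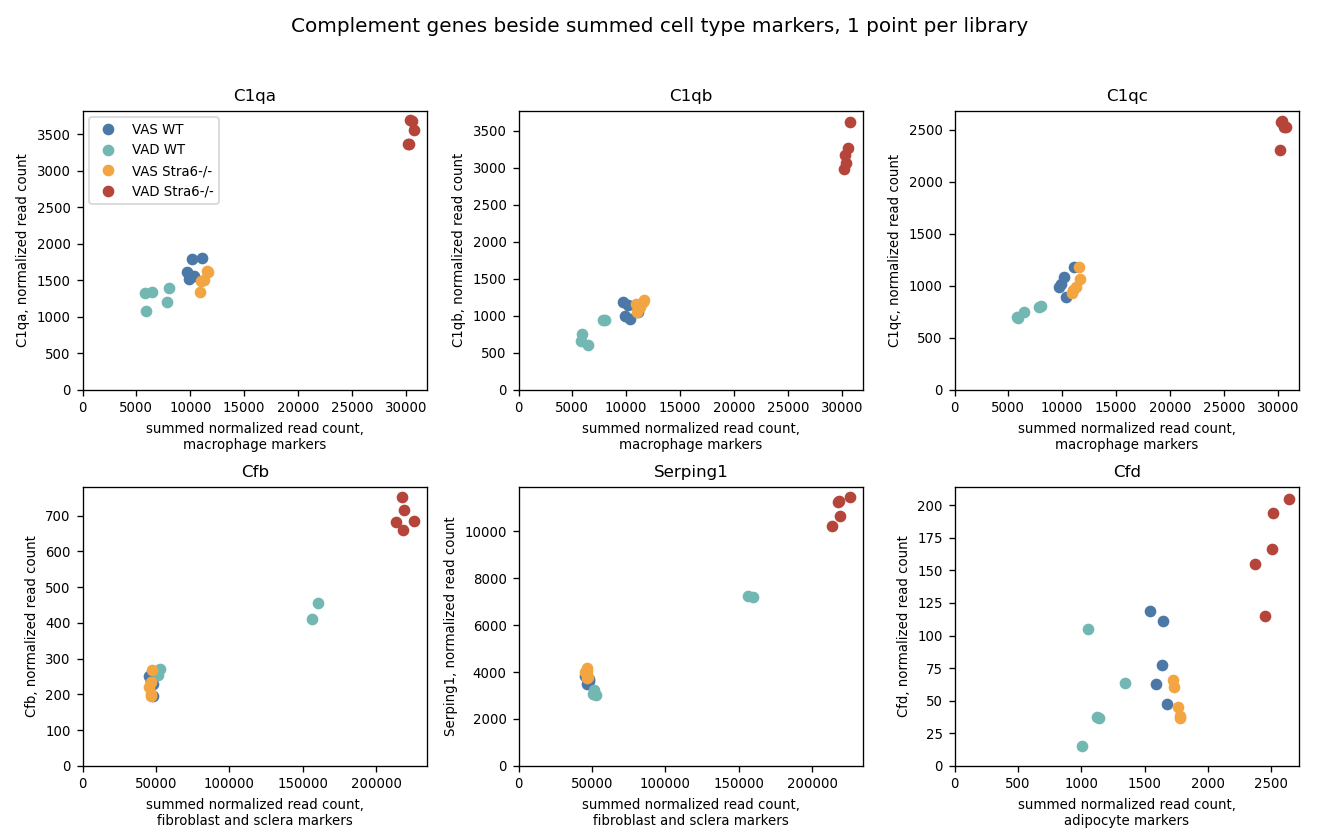
Normalized read count of 6 complement genes (vertical axes) against the summed normalized read count of a cell type marker list (horizontal axes), 1 point per library, coloured by group, both axes from 0. The C1q chains have their highest group means where the macrophage sum is highest (30167 to 30753) and their lowest in VAD WT (5829 to 8027), Cfb and Serping1 are high in VAD WT replicates 2 and 4, where the fibroblast and sclera sum is high too (156132 and 159946), and Cfd is scattered against the adipocyte sum.

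C4b encodes the C4 protein that C1s cleaves, and lies at chr17:34728380-34743882 on the minus strand, in the major histocompatibility region. It was at 3209, 3191, 3239, 3244 and 3116 in VAS WT and at 4152, 4508, 3961, 4417 and 4351 in VAS Stra6-/-. VAD WT libraries held 3319, 3523, 3634, 3649 and 3029.8, and those labelled VAD Stra6-/- held 3839.7, 3779, 4158, 4112 and 3987. C4b thus separated by genotype on both diets without overlap, and the VAS Stra6-/- libraries, not the VAD ones, had the highest mean (4278 ± 220.1). The difference between genotypes was 1.34-fold on the sufficient diet (log2 0.42, SE 0.06, limma adjusted p = 2.1e-05) and 1.16-fold on the deficient diet (log2 0.21, adjusted p = 0.0042). No diet effect was called in WT (log2 0.10, 95% interval -0.03 to 0.22) or in Stra6-/- (log2 -0.11, -0.23 to 0.02). C4b shares 16.5% of its 100-base windows with its neighbour C4a, itself at no more than 35.1 in any library, so a share of reads could have been assigned to either copy. Skeletal muscle markers moved with genotype as well, 6 of 6 being called higher in Stra6-/- on either diet, with sums of 8108 to 9679.6 in VAS WT, 2297 to 10213 in VAD WT, 21395 to 24165 in VAS Stra6-/- and 14328 to 17544 in the libraries labelled VAD Stra6-/-. Of all genes 15.9% were called higher on the sufficient diet and 26.2% on the deficient diet. Within VAD WT the muscle sum was 2297 to 2376 in replicates 1, 3 and 5 and 9840 to 10213 in replicates 2 and 4. The C4b values of those 2 sets overlapped. The part of muscle in the C4b level was not tested.

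C3, the component on which the pathways converge, lies at chr17:57203970-57228136 on the minus strand. VAS WT libraries held 423, 325, 393, 377 and 435 and VAS Stra6-/- libraries 470.3, 509, 537, 522 and 439. VAD WT libraries held 294, 543, 332, 469 and 354, with replicates 2 and 4 on top, and those labelled VAD Stra6-/- held 518, 509, 625, 592 and 616. Relative to VAD WT, C3 was 1.47-fold higher in those libraries (log2 0.55, SE 0.14, adjusted p = 0.0016), though VAD WT replicate 2 lay within the range of that group. Between the VAS genotypes the libraries did not overlap, but the 1.27-fold difference missed the threshold (log2 0.35, adjusted p = 0.0663) and passed it when VAD WT replicates 2 and 4 were left out of the fit (adjusted p = 0.0045), also without replicate 1 (0.0415) or 2 (0.0281) of VAD WT alone. Neither diet contrast was called for C3 (log2 0.00 in WT and 0.21 in Stra6-/-).

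Cfb, encoding factor B, the zymogen of the alternative pathway convertase, lies at chr17:34856374-34862518 on the minus strand. It was at 228, 234, 196, 251 and 238 in VAS WT and at 220.4, 234, 195, 269 and 201 in VAS Stra6-/-, so the VAS genotypes overlapped fully. The libraries labelled VAD Stra6-/- held 659, 715, 752, 682 and 685, all above every other library. In VAD WT the values were 265, 410.0, 271, 454 and 255, with replicates 2 and 4 well above the other 3. Cfb was 3.13-fold higher in VAD than in VAS Stra6-/- (log2 1.65, SE 0.15, limma adjusted p = 3.4e-09) and 2.17-fold higher than in VAD WT (log2 1.12, adjusted p = 1.1e-06). The 1.40-fold rise with diet in WT (log2 0.49, adjusted p = 0.0393) rested on those 2 replicates: without both it was log2 0.20 (adjusted p = 0.146), and without 2 alone or 4 alone it was 0.40 and 0.36, not called either. It was also lost without VAS WT replicate 1, 2, 3 or 5 or VAS Stra6-/- replicate 1, with log2 values of 0.43 to 0.50. Cfb shares 81% of its 100-base windows with Gm20547, an annotated readthrough transcript of C2 and Cfb on the same strand, and the values were used as assigned to Cfb.

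Cfd, encoding factor D (adipsin), the serine protease that cleaves factor B and is abundant in fat, was the least read of the 9 genes. It lies at chr10:79890853-79892655 on the plus strand. VAS WT libraries held 47.1, 111, 119, 77.1 and 62.5, VAD WT libraries 105, 37.1, 63.8, 15.4 and 36.4, and VAS Stra6-/- libraries 66, 60.4, 36.6, 38 and 45. In the libraries labelled VAD Stra6-/- it was at 155, 194, 115, 167 and 205, above every VAD WT and VAS Stra6-/- library, and only VAS WT replicate 3 reached into its range. The rise against VAS Stra6-/- was 3.38-fold with a wide error (log2 1.76, SE 0.38, adjusted p = 0.0005). The differences for diet in WT and for genotype on the sufficient diet were not called and their intervals were wide: log2 -0.86 (95% interval -1.66 to -0.07) and -0.71 (-1.50 to 0.09). Without VAD WT replicate 1 the decrease with diet in WT was called (log2 -1.18, adjusted p = 0.0429). Adipocyte markers beside it summed to 1545 to 1673 in VAS WT, 1005 to 1345 in VAD WT, 1722 to 1782 in VAS Stra6-/- and 2367 to 2639 in the libraries labelled VAD Stra6-/-. Adipoq, which is specific to fat cells, was at 19.6 to 36.1 in VAS WT and 0 to 51.1 in VAD WT. It was at 9.14 to 17.3 in VAS Stra6-/- and 21.2 to 67.6 in the libraries labelled VAD Stra6-/-. The rise of the sum between the Stra6-/- groups was carried by Lpl, the most abundant of the list (699 to 766, then 1459.9 to 1976). Plin4 was lower instead (598 to 680, then 391 to 593), and of the 10 markers 2 were called higher and 1 lower. Relative to the mean log2 level of these markers, Cfd did not stay level: it stood higher by 1.01 ± 0.468 in VAS WT, 0.84 ± 0.838 in VAD WT, 0.38 ± 0.396 in VAS Stra6-/- and 1.89 ± 0.371 in the libraries labelled VAD Stra6-/-. The part of fat tissue in the Cfd level was not tested.

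Serping1 encodes C1 inhibitor, which inactivates C1r, C1s and the lectin pathway proteases, and had the highest mean read count of the 9 genes in every group but VAS Stra6-/-, where C4b had more. In VAD WT this rested on replicates 2 and 4, since C4b exceeded Serping1 in replicates 1 and 3 and had the higher median (3523 against 3253). It lies at chr2:84765387-84775444 on the minus strand. It was at 3703, 3497, 3636, 3837 and 3763 in VAS WT and at 3986, 4159, 4036, 3783 and 3756 in VAS Stra6-/-. The libraries labelled VAD Stra6-/- held 11288, 10659, 11262, 10252 and 11474, above every other library. VAD WT split into 3082, 3018 and 3253 (replicates 1, 3 and 5), below every VAS WT library, and 7254 and 7214 (replicates 2 and 4), above every VAS WT library. The gene was 2.79-fold higher in VAD than in VAS Stra6-/- (log2 1.48, SE 0.19, limma adjusted p = 1.2e-06). In WT the diet difference was log2 0.24 (95% interval -0.16 to 0.65) over 5 libraries and, without replicates 2 and 4, it turned to -0.24 (adjusted p = 0.00036). The fibroblast and sclera markers, 10 genes of connective tissue, summed to 50389.6 to 52626 in VAD WT replicates 1, 3 and 5 and to 156132 and 159946 in replicates 2 and 4, against 44998 to 47704 in VAS WT and 213697 to 225739 in the libraries labelled VAD Stra6-/-. Dcn, the most abundant of them, was at 15758 to 17077 in VAS WT and 112126 to 123370.0 in the last group. Relative to the mean log2 level of those markers, Serping1 stood higher by 0.51 ± 0.0714 in VAS WT, 0.23 ± 0.066 in VAD WT, 0.73 ± 0.0584 in VAS Stra6-/- and 0.49 ± 0.0748 in the libraries labelled VAD Stra6-/-. Cfb stood at -3.50 ± 0.159, -3.53 ± 0.259, -3.41 ± 0.201 and -3.48 ± 0.0709 against the same markers in the same order. Against the RPE markers Serping1 stood at -0.37 ± 0.116, 1.01 ± 0.169, -0.34 ± 0.0872 and -0.58 ± 0.0267, and Cfb at -4.38 ± 0.164, -2.75 ± 0.14, -4.48 ± 0.174 and -4.56 ± 0.0967. Other tissue markers also split within VAD WT. Between replicates 1, 3 and 5 and replicates 2 and 4 the sums of endothelium markers went from between 6030.2 and 6109.5 to between 17761 and 18224, and those of rod markers from between 104494 and 108306 to between 276782 and 278109. Erythrocyte markers went from between 3175 and 3373 to between 44884 and 45389, skeletal muscle markers from between 2297 and 2376 to between 9840.1 and 10213, and surface epithelium markers down from between 1214591 and 1248317 to between 429364 and 434672. Endothelium, rod, erythrocyte and skeletal muscle markers were not used as a scale for Serping1 or Cfb. The part of connective or any other tissue in the Serping1 and Cfb levels was not tested.

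Cd59a encodes a membrane-anchored inhibitor of the membrane attack complex and lies at chr2:104095801-104115354 on the plus strand. VAS WT libraries held 793, 803, 857, 805 and 921 and VAS Stra6-/- libraries 704, 798, 734, 679.9 and 727. VAD WT replicates 1, 3 and 5 held 1111, 1148 and 1159, and replicates 2 and 4 held 652 and 735, the reverse of the split seen for Serping1 and Cfb. The libraries labelled VAD Stra6-/- held 931, 870.4, 868, 883 and 1279, with replicate 5 apart from the other 4. Cd59a was 1.31-fold higher in VAD than in VAS Stra6-/- (log2 0.39, SE 0.14, limma adjusted p = 0.0244), a call lost without VAD Stra6-/- replicate 5 (log2 0.29, adjusted p = 0.0915) or VAS Stra6-/- replicate 4 (log2 0.37, adjusted p = 0.0551). Against VAD WT the difference was log2 0.03 over all libraries (95% interval -0.26 to 0.33), and -0.25 (adjusted p = 0.0303) without VAD WT replicates 2 and 4. In WT the diet difference was 0.16 over all libraries and 0.45 (adjusted p = 0.0011) without those 2.

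The interaction, which asks whether the diet effect differed between the genotypes, was called for 6 of the 9 genes, all higher, where 19.5% of all genes were called higher and 24.8% lower. In each of the 6 the diet estimate was higher in Stra6-/- than in WT. For the C1q chains and Cfd the WT estimate was a decrease, not called for Cfd. Cfd had the largest estimate (log2 2.62, SE 0.54, limma adjusted p = 0.00041), followed by C1qb (1.96, SE 0.15), C1qc (1.75, SE 0.11), C1qa (1.61, SE 0.11), Serping1 (1.23, SE 0.27) and Cfb (1.16, SE 0.21). C3 (0.21), Cd59a (0.23) and C4b (-0.20, adjusted p = 0.0576) were not called, although C4b was called lower without VAD WT replicate 5 (log2 -0.25, adjusted p = 0.0103), VAS Stra6-/- replicate 3 (-0.23, 0.033) or VAD Stra6-/- replicate 3 (-0.22, 0.0492). Since Stra6 went against the label of the VAD Stra6-/- libraries, these interactions and the comparisons with that group describe the libraries so labelled.

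**Figure D3:**
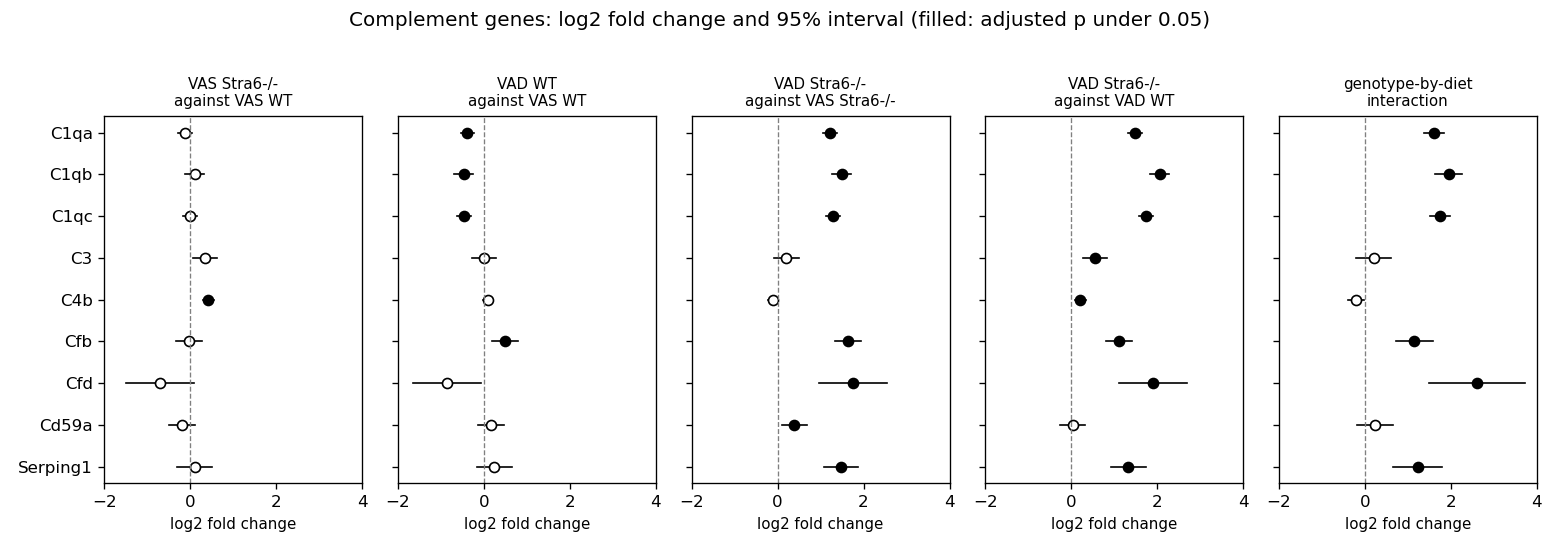
Log2 fold change (horizontal axes, points) with its 95% interval (lines) of the 9 complement genes (vertical axis) in the 4 comparisons and the genotype-by-diet interaction, from limma on 20 libraries. Filled points have an adjusted p under 0.05: 1, 4, 7, 8 and 6 of the 9 genes from left to right.

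Per kilobase of exon, a rough scale for setting genes side by side, the 9 genes spanned more than an order of magnitude. The length was that of all annotated exons merged, which can exceed the longest transcript. It was 2325 against 1768 bases for Serping1, 1931 against 1203 for C1qc and 1040 by either measure for C1qa. The order of genes close to each other, such as C1qa and Serping1 or C1qc and C4b, therefore depends on the length chosen. In VAS WT the mean normalized read counts per kilobase ran from C1qa (1587) and Serping1 (1586), which did not differ beyond their spread, through C1qb (979), C4b (562), C1qc (534) and Cd59a (462) to Cfd (90.4), Cfb (81.2) and C3 (75.9). The library range of C1qc overlapped those of C4b and Cd59a, and the ranges of Cfd, Cfb and C3 overlapped. In the libraries labelled VAD Stra6-/- Serping1 led (4726), followed by C1qa (3395), C1qb (2956) and C1qc (1298), and C4b (698), Cd59a (534), Cfb (247), Cfd (181) and C3 (111) came after them. In this group the ranges of C1qa and C1qb overlapped, as did those of C4b and Cd59a. On this scale transcripts of C1 inhibitor and of the A and B chains of C1q were thus the 3 most abundant of the 9 in both groups, and C3, the common substrate, had the lowest mean in both.

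**Figure D4:**
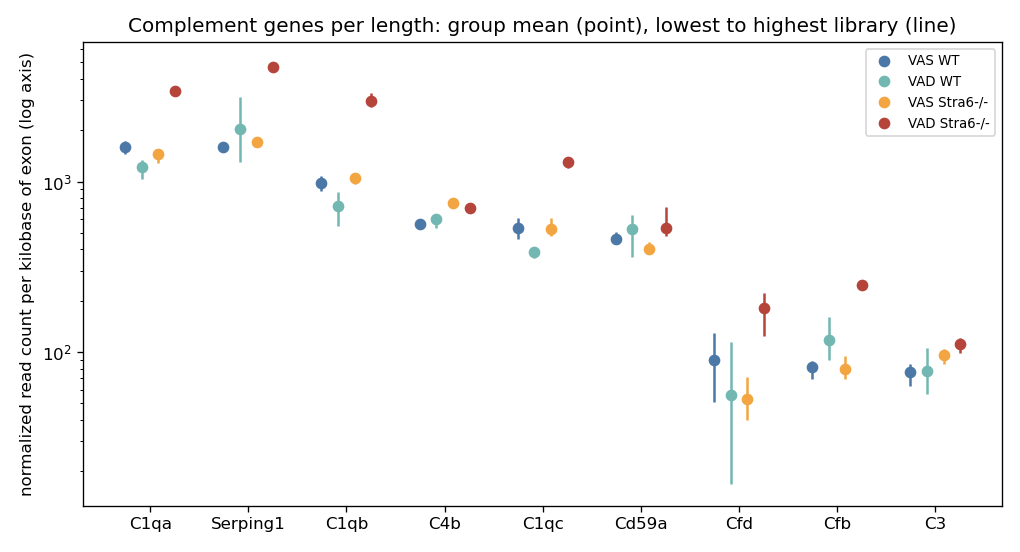
Normalized read count per kilobase of exon (vertical axis, log scale) of the 9 complement genes, ordered by their mean in VAS WT, with a point for each group mean and a line from the lowest to the highest of 5 libraries. In VAS WT the means run from 1587 (C1qa) to 75.9 (C3), and in the libraries labelled VAD Stra6-/- Serping1 is highest (4726).

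Across the 20 libraries the log2 values of the 3 chains followed one another (Pearson r of 0.96 for C1qa with C1qb, 0.99 for C1qa with C1qc and 0.98 for C1qb with C1qc), and Cfb followed Serping1 (r = 0.95). These coefficients describe 20 libraries that fall into 4 groups and share group differences. After the group means were removed, r was 0.83 for Cfb with Serping1, 0.82 for C3 with Serping1 and 0.67 for C1qa with C1qc, and only 0.11 for C1qa with C1qb. Cd59a then ran against Serping1 (r = -0.76) and Cfb (r = -0.74). The coefficient of variation was greatest in VAD WT for 8 of the 9 genes, C1qc being the exception (6.77% against 10.5% in VAS WT).

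Among 12291 genes with a mean of at least 100, those whose log2 values over the 20 libraries were most like C1qb were Arl6ip1, the lysosomal protease Ctss (r = 0.99) and the keratin Krt18. C1qa was nearest to Sema3b, Acsl6 and Slc4a2, and C1qc to Sema3b, Atp6v0c and the glucose transporter Slc2a1 (r = 0.98 to 0.99). Cfb was nearest to the stromal genes Lum, Cpxm1 and Dcn (r = 0.98), and Serping1 to Pdgfrl, Rnase4 and Ctsk (r = 0.99). C3 was nearest to Zfp106, Car6 and Rab37 (r = 0.92 to 0.93), and C4b to the chaperone Hsp90ab1, Tmem65 and Gtf3c4 (r = 0.91 to 0.92). Cfd was nearest to Haus3, Atp6v0e and Mt3 (r = 0.89 to 0.91), and Cd59a to Sdhb, Bag1 and Psma3 (r = 0.91 to 0.93). Ctss also stands in the macrophage list, and none of the other genes named here as nearest to a C1q chain does. Lum and Dcn stand in the fibroblast and sclera list. These coefficients too are taken over 4 groups and share the group differences.

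The rest of the pathway was followed in 48 further complement genes, of which 45 passed the filter. In VAD against VAS Stra6-/- 13 (28.9%) were called higher and 7 (15.6%) lower, beside 24.4% and 28.8% of all genes, with a median log2 fold change of 0.01 (1.30 for the 9 genes above), and against VAD WT 14 (31.1%) were called higher and 9 (20%) lower, beside 26.2% and 29.6%. The shares called higher were thus near those of all genes. With diet in WT limma called 0 higher and 2 lower (0 and 5 at an unadjusted p under 0.05, 0 and 2 by edgeR and by DESeq2) beside 3.29% and 5.5% of all genes, and between the VAS genotypes 0 higher and 2 lower (4 and 3 unadjusted, 0 and 2 by either count tool) beside 15.9% and 10.8%. The interaction was called higher for 10 (22.2%) and lower for 6 (13.3%), beside 19.5% and 24.8%.

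Among genes of initiation, 4 of 13 tested were called higher and 1 lower with diet in Stra6-/-, where 24.4% of all genes were called higher and 28.8% lower. The C1 proteases C1ra (log2 1.46, SE 0.26) and C1s1 (1.14, SE 0.18), the convertase component C2 (1.34, SE 0.13) and the scavenger collectin Colec12 (1.87, SE 0.20) rose. C2 was at 1135 to 1465 in VAS Stra6-/- and 3129 to 3459.8 in the libraries labelled VAD Stra6-/-, without overlap. The properdin gene Cfp, whose product stabilizes the alternative convertase, was lower in Stra6-/- on both diets (log2 -0.66 on the sufficient and -1.22 on the deficient diet, limma adjusted p = 0.0304 and 7.7e-05). On the sufficient diet this call was lost without VAS WT replicate 2, 3 or 5 or VAS Stra6-/- replicate 3 or 5 (log2 -0.66 to -0.59, adjusted p = 0.0568 to 0.0831) and with the replicate block (0.0521). Of 7 terminal pathway genes 1 was called higher and 1 lower in VAD against VAS Stra6-/-, and the group means of all 7 stayed below a normalized read count of 30.

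Among the soluble regulators, Clu, encoding clusterin, which blocks assembly of the terminal complex, rose from 32892 to 33687 in VAS Stra6-/- to between 110207 and 126300.0 in the libraries labelled VAD Stra6-/- (log2 1.80, SE 0.12) and fell with diet in WT (log2 -1.02, SE 0.12, adjusted p = 1.0e-05). Relative to VAD WT, Vtn, encoding vitronectin, was lower in that group (log2 -0.40, SE 0.12, adjusted p = 0.0092), a difference carried by VAD WT replicates 2 and 4 (4740.3 and 4902.5): replicates 1, 3 and 5 (2719.9 to 3071) overlapped the libraries labelled VAD Stra6-/- (2520.1 to 2982), and without 2 and 4 it was log2 -0.11 (adjusted p = 0.083).

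Of 6 membrane regulators tested, 1 was called higher, 3 lower and 2 in neither direction in VAD against VAS Stra6-/- (24.4% and 28.8% of all genes higher and lower). The decay accelerator Cd55 fell (log2 -0.83, SE 0.19), as did Susd4 (log2 -2.34, SE 0.18), which encodes a complement control protein, whereas Cr1l, encoding the rodent regulator Crry, rose slightly (log2 0.33, SE 0.08, adjusted p = 0.0019). Cd59a, described above, was therefore called in the same direction as Cr1l and opposite to Cd55. Surface epithelium markers, 12 of 12 called lower in this comparison with sums of 933440 to 969373 against 29850.5 to 37729.9, moved with the genes that fell, and their part in those was not tested.

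Of the 9 receptors, 5 were called higher and 1 lower in VAD against VAS Stra6-/- (24.4% and 28.8% of all genes). The anaphylatoxin receptors C3ar1 (log2 2.16, SE 0.19) and C5ar1 (log2 1.58, SE 0.32) rose, as did the integrin chains Itgax (1.68, SE 0.18) and Itgb2 (1.68, SE 0.20) of complement receptor CR4. Itgam, the partner of Itgb2 in CR3, fell instead: it was at 1945 to 2241 in VAS Stra6-/- and at 156 to 194 in the libraries labelled VAD Stra6-/- (log2 -3.59, SE 0.13, adjusted p = 9.3e-16). Itgam was also lower with diet in WT (log2 -1.13, SE 0.13), and its fall was opposite to the rise of all 15 macrophage markers. Relative to VAD WT, Cd93, once described as a C1q receptor, was higher (log2 0.62, SE 0.23, adjusted p = 0.0245) in limma but not in edgeR (adjusted p = 0.147) or DESeq2 (0.114). VAD WT split for this gene too, replicates 1, 3 and 5 at 212 to 234 lying below the libraries labelled VAD Stra6-/- (442 to 580.0) and replicates 2 and 4 at 546 and 601 within or above them. The limma call was lost without VAD WT replicate 1, 3 or 5 or VAD Stra6-/- replicate 2 (log2 0.47 to 0.57, adjusted p = 0.0593 to 0.0899).

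**Figure D5:**
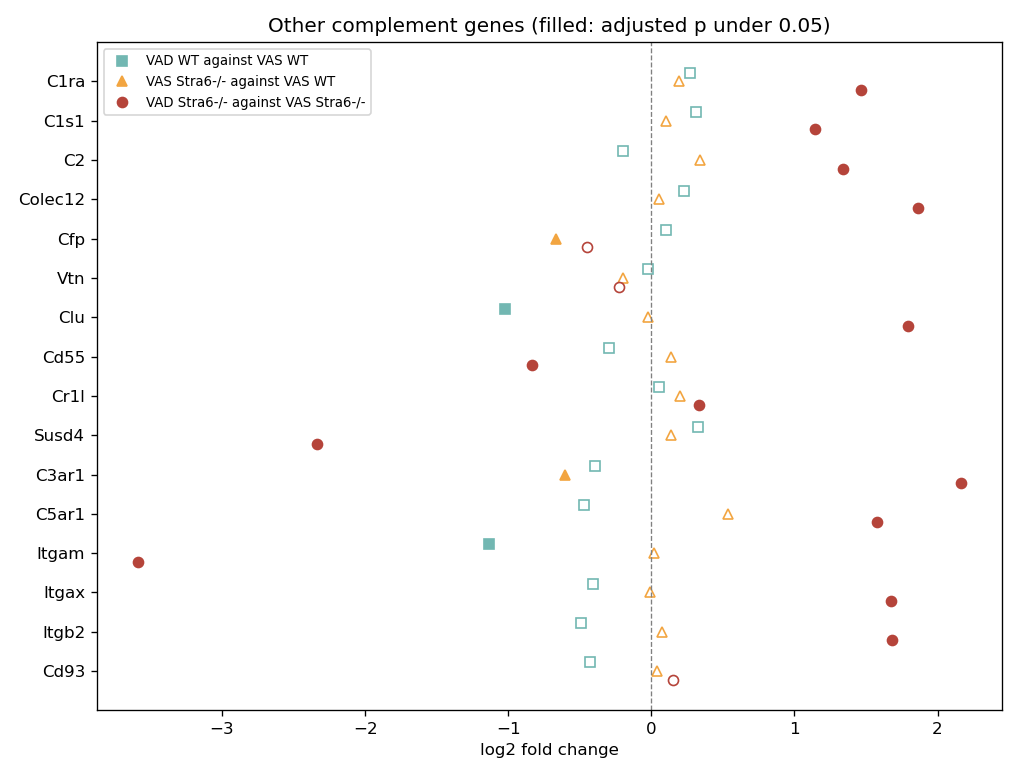
Log2 fold change (horizontal axis) of 16 other complement genes with a mean of at least 100 in some group and a call in at least 1 comparison (vertical axis), for VAD WT against VAS WT (squares), VAS Stra6-/- against VAS WT (triangles) and VAD against VAS Stra6-/- (circles), filled where the adjusted p was under 0.05. C3ar1 (2.16) is farthest to the right and Itgam (-3.59) farthest to the left.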

How the data were processed

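RNA of RPE-choroid from 20 mice was sequenced as bulk libraries. The authors aligned reads with STAR 2.5.3a and counted them with RSEM 1.2.30 on GRCm38 (submitters' processing notes), and deposited a signal per gene, the count after division by a DESeq2 size factor. Divided by its smallest step, each library gave whole reads for 100% of values (within 0.001). VAD Stra6-/- replicate 1, whose step is too near 1 for this to be decisive, was left out of count tests, which used 19 libraries. The main test was limma 3.58.1 (R 4.3.3, intensity trend) on log2(value + 1) with 4 group means and Benjamini-Hochberg adjustment over 18807 genes with at least 5 recovered reads in total. Alternatives were TMM rescaling, edgeR 4.0.16 and DESeq2 1.42.0 on recovered reads of 19 libraries, other filters, pseudocounts of 0.5 and 4, a fit of 2 groups, a replicate block and libraries left out. Scripts were tested on simulated data.

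Groups came from the submitters' labels. The 9 genes, the other complement genes and the marker lists were chosen with earlier results of these data known. Named genes were all 9; Stra6; other listed complement genes called in at least 1 comparison with a mean of at least 100 in some group; leading markers; and, per gene, the 3 with the highest correlation. Of the other complement genes, 1 that met this rule is not reported here. Sex-linked transcripts, Cd163, Ctss, Mpo, Adipoq and Plin4 were named after their values were seen. Exon lengths and positions came from GENCODE vM21, promoter windows from RefSeq. No pair of replicates agreed within sampling noise. The annotation release used for counting is not given in the sources used here. Totals of 13331903 to 21878614 reads limit precision for rarely read genes such as Cfd.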

Additional observations from a re-analysis of the deposited data

Results flagged for a closer look

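In 2 of 36 sets of 5 libraries (9 genes in 4 groups) a library lay far from the other 4, and chance alone places about 1 in 20 such sets there. C1qc was at 2307 in VAD Stra6-/- replicate 4, below the other libraries of its group, and Cd59a was at 1279 in VAD Stra6-/- replicate 5, above the others. The diet effect differed between the genotypes, by the interaction term of limma, for 6 genes, with a log2 difference of 1.61 for C1qa, 1.96 for C1qb, 1.75 for C1qc, 1.16 for Cfb, 2.62 for Cfd and 1.23 for Serping1, each higher in Stra6-/- as labelled. The Stra6 level of the libraries labelled VAD Stra6-/-, 1973 to 2393, went against that label.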

How the results depend on the processing

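Over the other settings, with the lowest and highest value of leaving out each library in turn, the 9 genes in 5 comparisons gave 505 values with the same direction and call, 10 newly called, 5 no longer called and 11 of opposite sign; the causes were not tested. With limma on only the 2 groups compared, 3 of the 9 genes were called between the VAS genotypes and 2 between the WT diets, and 10 of the other complement genes between the VAS genotypes. Of all 18807 genes, 8208 and 639 were called in these 2 comparisons. Without VAD WT replicates 2 and 4 the counts were 2 of the 9 and 7 others between the VAS genotypes (7524 of all genes), and 13 others between the WT diets (7124 of all genes). With a log2 fold change beyond 1 as well, 0 of the 9 were called in either comparison and 0 of the others between the VAS genotypes. All genes then gave 926 calls between the VAS genotypes and 328 between the WT diets. Leaving out each library in turn, 1 to 2 of the 9 and 0 to 3 of the others were called between the VAS genotypes (4282 to 5575 of all genes), and 2 to 4 of the others between the WT diets (1260 to 2651 of all genes).

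Signs turned for differences near 0. C3 with diet in WT was 0.0016 after TMM rescaling, 0.034 by edgeR and 0.036 by DESeq2, and ran from -0.12 to 0.10 with each library left out. Between the VAS genotypes C1qc ran from -0.061 to 0.042 and Cfb from -0.11 to 0.0072. Cd59a between the VAD groups was -0.0022 by edgeR and ran from -0.10 to 0.11. Without VAD WT replicates 2 and 4, Cd59a was -0.25 between the VAD groups and -0.056 in the interaction, and Serping1 with diet in WT was -0.24.

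Replicate numbers did not pair the samples: the deviations of same-numbered libraries correlated at -0.07 to 0.07 over 30 pairs of libraries. With the replicate block, 1, 4, 7, 8 and 6 of the 9 genes were called in the 5 comparisons, as without it, and 1 of the other complement genes between the VAS genotypes. Of all 18807 genes, 4820, 1446, 9937, 10423 and 8193 were called with the block. The count tools used 19 libraries. Cfd, with 15.4 to 205 normalized reads, was the least read of the 9 genes in the libraries and had the widest intervals.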
